A study of Mus musculus with 6 samples.

Results

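The cadherins and protocadherins are calcium-dependent adhesion proteins that span the cell membrane and bind the same or related proteins on neighbouring cells. Classical cadherins hold adherens junctions together and are tied to actin through the catenins. Single protocadherins adhere more weakly. The clustered protocadherins, whose alpha, beta and gamma genes lie in tandem arrays, give single neurons their own sets of surface labels. Gamma protocadherins are known to act in contacts between astrocytes and neurons. The family was taken as all protein-coding genes whose symbol is Cdh followed by a number or begins with Pcdh, which gave 92 of the 35127 genes in the files. It held 5 type I classical cadherins, 13 type II classical cadherins, 5 other cadherins, 4 delta-1, 5 delta-2 and 3 other single protocadherins, and 14 alpha, 22 beta and 21 gamma cluster members.

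The RNA came from mouse astrocytes. Each of the 3 tumour libraries held astrocytes taken from a brain carrying a small cell lung cancer (SCLC) allograft, and each of the 3 sham libraries held astrocytes from a brain that had received a sham injection. The sources used here do not give the graft's cell line, the mouse strain, age and genotype, or the way the astrocytes were purified. Nothing says that the libraries of a group came from separate animals, so the p-values rest on a spread between libraries that may be only technical.

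Depth was similar, at 22133723 to 25800897 estimated reads per library. The tumour libraries nearly coincided, and so did sham 1 and 2: the root mean square log2 difference over tested genes was 0.226 to 0.24 within these pairs, 0.6 to 0.621 between tumour and sham libraries, and 0.643 and 0.65 between sham 3 and the other sham libraries. Sham 3 thus stood apart from its own group, and results are given with and without it where they rest on it. The 8 astrocyte markers were all present, with a summed level of 3014 to 3119 CPM (counts scaled by library size) in the tumour libraries. Sham 1 and 2 had 4408 and 4418 CPM, and sham 3 had 2579 CPM. By edgeR, Aldh1l1 was called higher in tumour (log2 fold change 0.48, adjusted p = 0.0215) and Gja1 lower (-0.94, adjusted p = 0.0268). Markers of pericytes and fibroblasts summed to 3621 to 3653 CPM in the tumour libraries, to 3446 and 3450 in sham 1 and 2, and to 5798 CPM in sham 3. The sums of these lists were of the same order, but CPM do not allow for gene length. The 3 markers of oligodendrocyte precursors summed to 306 to 315 CPM in tumour and 228 to 239.8 CPM in sham libraries, with Pdgfra called higher (log2 fold change 0.63, adjusted p = 0.0326), and the 4 oligodendrocyte markers to 14.7 to 17.1 and 6.65 to 9.57 CPM. The 10 SCLC markers summed to 14.8 to 17.6 CPM in tumour and 18.8 to 26.5 CPM in sham libraries, and 6 of them were below 1 CPM in every library. In bulk RNA, fewer cells of a type and less RNA per cell cannot be told apart.

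Levels were compared between genes in TPM (transcript abundance scaled by length and depth), which allows for length. A few members carried most of the family's RNA. Pcdhgc3, a gamma protocadherin, was the most abundant with a mean of 192 TPM over the 6 libraries (range 179 to 222), followed by Cdh5 (VE-cadherin) with 188 TPM (170.0 to 197), Cdh11 (OB-cadherin, known from mesenchymal cells) with 169.9 TPM (129 to 224) and Cdh2 (N-cadherin, the classical cadherin of neural tissue) with 116 TPM (107 to 129). The ranges of the first 3 overlapped each other, as did those of Cdh11 and Cdh2, whereas every Cdh2 value lay above those of Cdh13 (T-cadherin, anchored to the membrane by a lipid), the next in order with 49.9 TPM (32.3 to 65.1). These 4 genes made up 61.3% to 68.1% of the family's summed TPM, which was 1001 to 1125 per library. Of the 92 members, 13 had a mean of at least 10 TPM, 45 of at least 1 TPM and 47 less than 1 TPM. No read was assigned in any library to Cdh9, Pcdha1, Pcdha2 and Pcdha6. With no read, a level of up to that of 3 reads (0.118 to 0.136 CPM by library) remains possible from counting error alone.

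**Figure D1:**
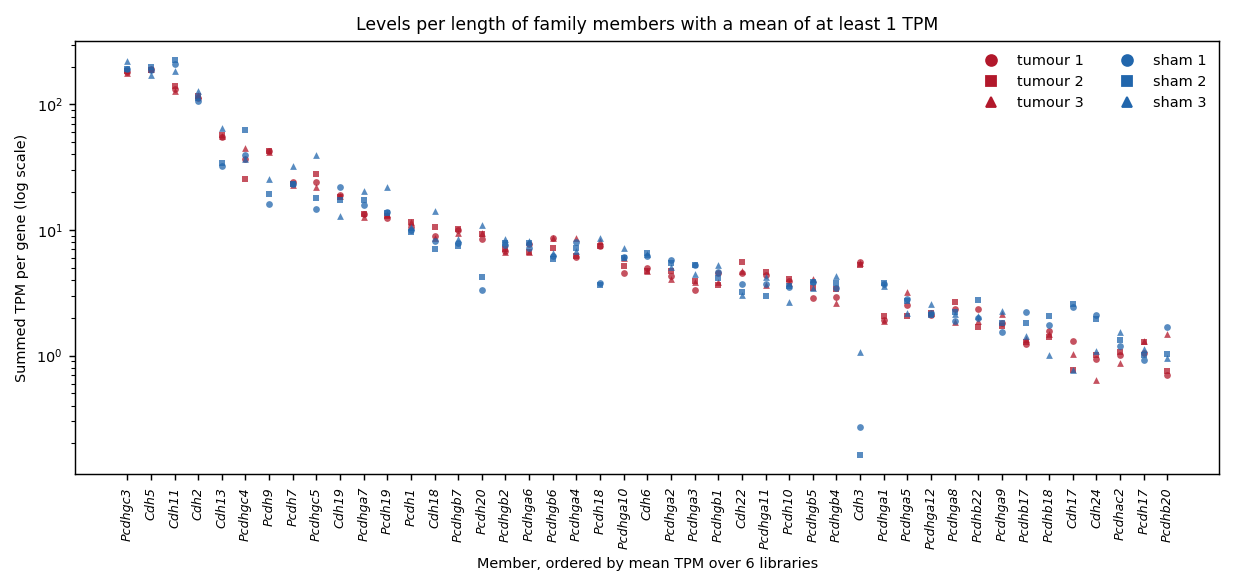
Summed TPM per gene (log axis) in each of the 6 libraries for the 45 members with a mean of at least 1 TPM, ordered by their mean. Red marks are tumour and blue marks sham libraries; Pcdhgc3, Cdh5, Cdh11 and Cdh2 lie above 100 TPM in every library, and Cdh3 has the widest gap between groups.

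In the comparison of tumour with sham astrocytes, 65 members had enough reads to be tested and 27 did not. The untested members had at most 65 reads over all 6 libraries. By the edgeR quasi-likelihood test at an adjusted p below 0.05, 5 of the 65 tested members were called higher and 6 lower in tumour than in sham astrocytes, or 7.69% and 9.23%, beside 10.5% and 10.4% of all 14359 tested genes. Values of the 3 tumour and 3 sham libraries did not overlap for 24 members, beside 44.1% of all tested genes. The median log2 fold change (tumour over sham) was -0.14 over the 65 members and -0.02 over all genes. The family as a whole was therefore called no more often than other genes, and what follows concerns single members. These calls depended on every tumour library: without any 1 of them, 0 members were called higher (6 to 8 at an unadjusted p below 0.05) and 1 or 2 lower. Calls over all genes shrank as well, from 1506 higher and 1492 lower to 536 to 542 and 355 to 383 of 14528 to 14555 tested. Without sham 1 the counts of members were 3 and 4 (850 and 758 over all genes), and without sham 2 they were 2 and 4 (824 and 693). Without sham 3 they were 12 and 22 of 70 tested members, or 48.6%, in a fit that called 57.7% of all genes. Of the 11 called members, Pcdhga1 alone kept its call whichever library was left out.

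**Figure D2:**
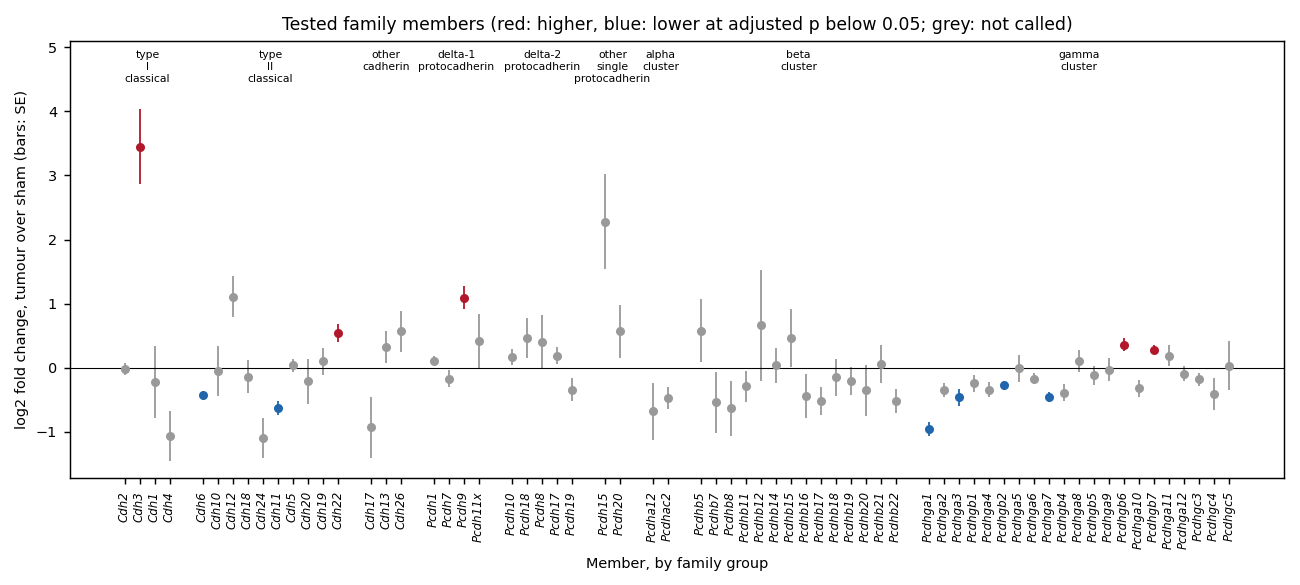
Log2 fold change (tumour over sham, vertical axis; bars are SE) of the 65 tested members by family group. Red and blue points are the 5 members called higher and the 6 called lower; Cdh3 at 3.45 has the largest value, and most points lie within 1 log2 unit of 0.

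Type I classical cadherins bind their own kind and make up most adherens junctions. Cdh3, which encodes P-cadherin and is best known from epithelia, stood at 18, 17.4 and 18 CPM in tumour libraries 1 to 3, and at 0.924, 0.54 and 3.45 CPM in sham 1 to 3. All tumour values were at least 5 times any sham value, and sham 3 was the sham library nearest to them. Cdh3 lies on chromosome 8 from 106510891 to 106557297 (mm10). The log2 fold change was 3.45 (SE 0.59, adjusted p = 0.0111), the largest of the family, and 4.60 without sham 3. Without tumour 1, 2 or 3 the adjusted p was 0.0557, 0.0545 and 0.0556. Epcam, an epithelial surface marker of SCLC cells, had 0.331, 0.329 and 0.237 CPM in the tumour libraries and 0 in every sham library. The part of such cells in the Cdh3 result was not tested.

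Cdh2 was nearly level, at 329, 348 and 349.9 CPM in tumour and 328, 337 and 376 CPM in sham libraries. The groups overlapped, and the log2 fold change of -0.02 (SE 0.09, adjusted p = 0.895) took the other sign without tumour 1 or without sham 3. Cdh1 (E-cadherin, the main cadherin of epithelia) was low, at 2.98, 2.51 and 1.62 CPM in tumour and 3.74, 3.7 and 0.817 CPM in sham libraries, and its groups overlapped as well (log2 fold change -0.22, SE 0.56, adjusted p = 0.817). Without sham 3, the lowest library, Cdh1 was called at -0.65 (adjusted p = 0.0248). Per length, Cdh2 exceeded Cdh1 96.4- to 511-fold in single libraries. Cdh4 (R-cadherin, found in retina and brain) had 2.9, 3.29 and 3.2 CPM in tumour and 3.96, 4.82 and 10.8 CPM in sham libraries. Every tumour value was lower than every sham value, but the gap came mostly from sham 3, and the log2 fold change of -1.06 (SE 0.39) was not called (adjusted p = 0.104), whereas without sham 3 it was -0.49 (adjusted p = 0.0423). Cdh15, the muscle cadherin, had 37 reads in all and was not tested.

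Among the type II cadherins, which bind more loosely and sort cells during development, 10 of 13 were tested, with 1 higher and 2 lower (10% and 20%, beside 10.5% and 10.4% of all genes). Cdh11 had 479, 467 and 467 CPM in tumour and 782, 772 and 627 CPM in sham libraries. The groups did not overlap, and sham 3 was the sham library nearest to the tumour values. Cdh11, on chromosome 8 from 102632095 to 102785642, fell by 0.63 on the log2 scale (SE 0.11, adjusted p = 0.0133), or 1.54-fold. Of the 6 markers of pericytes and fibroblasts, cells known for Cdh11, 0 were called, beside 20.9% of all genes. The collagen genes Col1a1 and Col1a2, which carry most of their sum, were highest in sham 3, whereas Lum had 43.6, 40.1 and 40.3 CPM against 60.8, 55.7 and 45.9 CPM (-0.39, adjusted p = 0.0528). Lum, the gene of a matrix proteoglycan, was thus lower in every tumour library, and Dcn, of the same family, was lowest in sham 3. The part of these cells in the Cdh11 result was not tested. Cdh6 (K-cadherin, of kidney and developing brain) had 27.4, 26.3 and 25.5 CPM in tumour and 35.2, 37.0 and 34.7 CPM in sham libraries, with all 3 sham libraries close together. It fell by 0.43 on the log2 scale (SE 0.07, adjusted p = 0.00823), and the call was lost without tumour 2 or 3 (adjusted p = 0.0534 and 0.054). Cdh22, a brain cadherin, rose from 12.5, 10.3 and 9.89 CPM in the sham to 14.3, 17.8 and 15.4 CPM in the tumour libraries (log2 fold change 0.54, SE 0.14, adjusted p = 0.0395), a small change that was not called without sham 2 (adjusted p = 0.12) or any tumour library.

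Cdh5 encodes VE-cadherin, which is known for the junctions of blood vessel endothelium. It was among the most abundant members in both groups, at 575, 573 and 577 CPM in tumour and 588, 595 and 497 CPM in sham libraries. Sham 3 was the lowest of the 6 and the groups overlapped (log2 fold change 0.04, SE 0.10, adjusted p = 0.822). Other defining endothelial genes were at or near 0: Cldn5, the tight junction claudin of brain vessels, had no read in any library, Pecam1 had 0 to 0.499 CPM and the receptor gene Tie1 0 to 0.124 CPM. The receptor genes Tek, Flt1 and Kdr, also on that list, were present at 3.78 to 6.71, 8.88 to 37.6 and 4.89 to 13.4 CPM. Kdr was called lower in tumour (log2 fold change -1.29, edgeR adjusted p = 0.0035), whereas Flt1 (1.05, 0.205) and Tek (0.44, 0.213) were not called. All 6 endothelial genes together summed to 45.8 to 49.3 CPM in tumour and 26.3 to 50.1 CPM in sham libraries. In TPM, which allows for length, Flt1 had the highest value of the list, at 1.7 to 7.77, against 170.0 to 197 for Cdh5.

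Of the remaining type II genes, Cdh19, known from glia of peripheral nerves, had 35.6, 38.9 and 38.3 CPM in tumour and 45.3, 35.6 and 24.4 CPM in sham libraries, with tumour values inside the sham range (log2 fold change 0.10, SE 0.21). Cdh18 had 14.5, 17.1 and 14.5 CPM against 13.3, 12.8 and 24.5 CPM, where sham 3 alone was high (-0.14, SE 0.26). Cdh12 and Cdh24 had groups that did not overlap and log2 fold changes of 1.11 and -1.09, and neither was called by edgeR with all 6 libraries (adjusted p = 0.0515 and 0.0532). Both were called without sham 3, at 1.10 (adjusted p = 0.0401) and -1.34 (adjusted p = 1.94e-06). Cdh12 did not exceed 1.6 CPM and Cdh24 did not exceed 5.85 CPM in any library. Cdh7, Cdh8 and Cdh9 had 0 to 8 reads in all and were not tested. Among the other cadherins 0 of 3 tested members was called by edgeR, beside 20.9% of all genes. At an unadjusted p below 0.05 there were 0, beside 5216 of all 14359 tested genes. Cdh13 had 151, 156 and 153 CPM in tumour and 92.9, 95.6 and 178 CPM in sham libraries, so that sham 3 lay above and sham 1 and 2 below every tumour value. Cdh17, a cadherin of intestine and liver, had 2.86, 1.73 and 2.29 CPM against 5.63, 5.78 and 1.68 CPM, again with sham 3 on the far side of the tumour values.

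**Figure D3:**
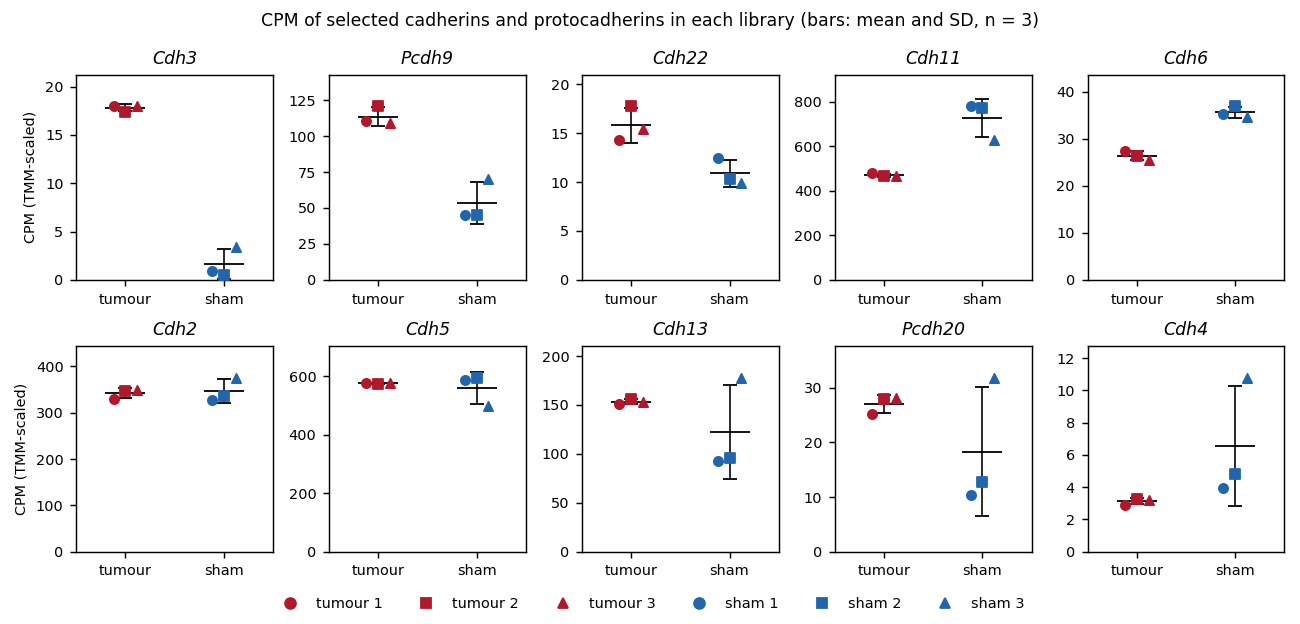
CPM (vertical axes, each starting at 0) of 10 members in each library; horizontal bars are means and error bars SD over 3 libraries. Cdh3, Pcdh9 and Cdh22 are higher and Cdh11 and Cdh6 lower in the tumour libraries, Cdh2 and Cdh5 overlap, and sham 3 departs from sham 1 and 2 for Cdh13, Pcdh20 and Cdh4.

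Single protocadherins of the delta groups steer axon growth and cell sorting in the brain. Pcdh9, a delta-1 member, had 110.2, 121 and 109 CPM in tumour and 44.9, 44.8 and 70.3 CPM in sham libraries. The tumour libraries were all higher, with sham 3 the nearest sham value. Pcdh9, on chromosome 14 from 93013410 to 93890679, rose 2.13-fold (log2 fold change 1.09, SE 0.18, adjusted p = 0.0108), and the log2 value was 1.34 without sham 3. Without 1 of the tumour libraries its adjusted p was 0.0513 to 0.0561. The summed markers of oligodendrocyte precursors and of oligodendrocytes were also higher in every tumour library, and their part in the Pcdh9 result was not tested. The other delta-1 members were not called. Pcdh7 had 111, 115 and 115 CPM against 117, 112 and 155 CPM (-0.17, SE 0.13), and Pcdh1 had 37.1, 40.5 and 41.7 CPM against 37.8, 35.0 and 38.1 CPM (0.11, SE 0.07). Both had overlapping groups, and Pcdh11x stayed below 2 CPM.

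Of the 5 delta-2 members 0 were called by edgeR, beside 20.9% of all genes. At an unadjusted p below 0.05 there were 0, beside 5216 of all 14359 tested genes. Pcdh19, whose human counterpart is an epilepsy gene, had 69.3, 73.1 and 75.9 CPM in tumour and 77.1, 78.2 and 121 CPM in sham libraries. All sham values were higher, sham 3 by far, and the log2 fold change was -0.34 (SE 0.18, adjusted p = 0.229). Pcdh18 had 25.5, 24.2 and 27.2 CPM against 13.7, 12.9 and 29.1 CPM, and Pcdh20, one of the other single protocadherins, 25.2, 28.0 and 28.1 CPM against 10.3, 12.7 and 31.9 CPM. In both genes sham 3 lay above every tumour value and the other sham libraries near the lower level. Pcdh10 (0.17, SE 0.13) and Pcdh17 (0.19, SE 0.13) were near their sham levels. Pcdh15, known from the tip links of inner ear hair cells, was low at 1.74, 1.64 and 2.05 CPM in tumour and 0.264, 0.0416 and 0.817 CPM in sham libraries. Its log2 fold change of 2.28 (SE 0.74) was not called (adjusted p = 0.0739), and sham 2 had only 1 read. Without sham 3 it was called, with a log2 fold change of 3.55 (adjusted p = 1.96e-06). Pcdh12, a protocadherin of endothelium, had 2 reads in all.

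Promoter sequence, from RefSeq for build GRCm38.p6 (the same assembly as mm10), was matched for 22 of the 92 members, among them the called members Cdh6, Cdh22 and Pcdh9. The windows of these 3 are shown because 2 of these genes rose and 1 fell. Each runs from 250 bases before to 50 bases after a gene start, read on the minus strand: chr15:13173626-13173925 for Cdh6, chr2:165234688-165234987 for Cdh22 and chr14:93890630-93890929 for Pcdh9. Capitals mark matches on either strand to ACGTG or GCGTG, the core letters of hypoxia response elements, and to CACCTG, the E-box bound by Snail and Zeb repressors. ACGTG can lie within the E-box CACGTG, which was not searched.
Cdh6: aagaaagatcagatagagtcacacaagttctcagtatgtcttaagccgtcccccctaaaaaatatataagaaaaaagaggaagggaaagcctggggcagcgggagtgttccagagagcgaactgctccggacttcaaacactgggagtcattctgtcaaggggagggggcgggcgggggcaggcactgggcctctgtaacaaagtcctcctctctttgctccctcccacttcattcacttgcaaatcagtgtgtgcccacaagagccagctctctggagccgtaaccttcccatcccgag
Cdh22: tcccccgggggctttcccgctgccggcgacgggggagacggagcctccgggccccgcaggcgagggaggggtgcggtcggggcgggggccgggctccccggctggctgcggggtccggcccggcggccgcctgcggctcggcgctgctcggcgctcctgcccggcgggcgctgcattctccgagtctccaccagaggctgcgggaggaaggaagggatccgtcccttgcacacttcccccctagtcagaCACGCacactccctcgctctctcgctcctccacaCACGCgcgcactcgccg
Pcdh9: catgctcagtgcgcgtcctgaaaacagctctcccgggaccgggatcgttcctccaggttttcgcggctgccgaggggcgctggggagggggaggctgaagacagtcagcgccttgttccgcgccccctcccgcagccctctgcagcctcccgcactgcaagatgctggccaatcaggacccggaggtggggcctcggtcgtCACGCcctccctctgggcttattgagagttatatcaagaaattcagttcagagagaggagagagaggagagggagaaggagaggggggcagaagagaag
GCGTG matched at 2 places in the Cdh22 window and at 1 in that of Pcdh9, and nowhere in that of Cdh6. It occurred in 32.4% of all 32851 windows of the same length and in those of 13 of the 22 matched members. ACGTG and CACCTG had no match in these 3 windows, occurred in 19.6% and 20.2% of all windows, and were each found for 3 of the 22 members. The windows of Cdh22 and Pcdh9 had 76.3% and 62.7% G and C and that of Cdh6 53.0%, beside a median of 52.7% over all windows. A match is a description of these letters and not a measured binding site.

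The clustered protocadherins lie side by side on chromosome 18, from 36930184 to 37841873. Alpha and gamma members each have their own first exon, which encodes the extracellular part, spliced to constant exons that all members of the cluster share, whereas beta members are single genes. In the annotation the constant part is 2860 bases of a full alpha transcript and 2116 or 2119 bases of a full gamma transcript. Reads from those bases fit every member alike and were divided among members by estimation, so a member's level is less certain than the cluster's sum.

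The alpha cluster was the least abundant, with 5.63, 6.04 and 5.85 CPM summed over its members in the tumour and 7.74, 8.94 and 8.8 CPM in the sham libraries. Every tumour value was lower than every sham value, with 136 to 215 reads per library behind them. The sum fell by 0.54 on the log2 scale (SE 0.13, edgeR adjusted p = 0.0287), in a fit with each cluster as 1 row that called 20.9% of its 14325 rows. Pcdhac2, a constitutively expressed C-type member, held 60.8% to 72.8% of the alpha reads and had 4.1, 4.4 and 3.55 CPM against 5.06, 5.45 and 6.22 CPM (-0.47, SE 0.17, adjusted p = 0.0936). Pcdha12, the other tested member, had -0.68 (SE 0.45), and the remaining 12 had at most 40 reads each in all. The call of the sum was lost without any 1 tumour library (adjusted p = 0.101 to 0.118), without sham 2 (0.095) and with Pcdhac2 left out of it (0.113).

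The beta cluster summed to 31.1, 27.7 and 33.5 CPM in tumour and 42.9, 39.7 and 27.7 CPM in sham libraries. Sham 3 was at the lowest tumour level while sham 1 and 2 were above all others. The log2 fold change was -0.26 (SE 0.17, adjusted p = 0.325), and -0.43 without sham 3. Of 14 tested beta genes 0 were called by edgeR, beside 20.9% of all genes. At an unadjusted p below 0.05 there were 2, beside 5216 of all 14359 tested genes. Log2 fold changes were below 0 for 9 beta genes and above 0 for 5, beside 7438 and 6921 of all genes. The most abundant, Pcdhb22, had 5.63, 4.56 and 5.77 CPM against 7.39, 9.23 and 6.31 CPM (-0.52, SE 0.19, adjusted p = 0.1), and Pcdhb17 3.56, 3.74 and 3.91 CPM against 6.68, 5.36 and 4.08 CPM (-0.52, SE 0.22). Neither pair of groups overlapped.

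The gamma cluster was by far the largest, at 1049, 1067 and 1067 CPM in tumour and 1154, 1166 and 1295 CPM in sham libraries. All sham values were higher, but the difference was small (log2 fold change -0.18, SE 0.10, adjusted p = 0.251). Pcdhgc3, a C-type member expressed broadly rather than by random choice, held 59.3% to 61.8% of the gamma reads in each library. It had 633, 659.7 and 634 CPM in tumour and 704, 692 and 786 CPM in sham libraries, without overlap, and was not called (-0.18, SE 0.10, adjusted p = 0.234). Pcdhgc5, of the same kind, had 52.3, 53.8 and 56.8 CPM against 33.7, 35.4 and 90.7 CPM, with sham 1 and 2 below and sham 3 above all tumour values (0.03, SE 0.38).

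Pcdhgc4, also a C-type member, had 58.2, 41.8 and 71.9 CPM in tumour and 67.2, 100.2 and 61.2 CPM in sham libraries, a scatter even between libraries that otherwise coincide (SD 15.1 CPM over the tumour libraries). Most of its reads were assigned to 1 transcript of 2272 bases that has 153 bases of its own and 2119 shared with other gamma members. That transcript received 1295, 887 and 1675 reads in the tumour and 1360, 2289 and 1141 in the sham libraries. Transcripts of Pcdhgc4 with an own exon received only 110 to 208 reads per library. Where on that transcript these reads lie, and how many of them stem from Pcdhgc4, was not tested.

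**Figure D4:**
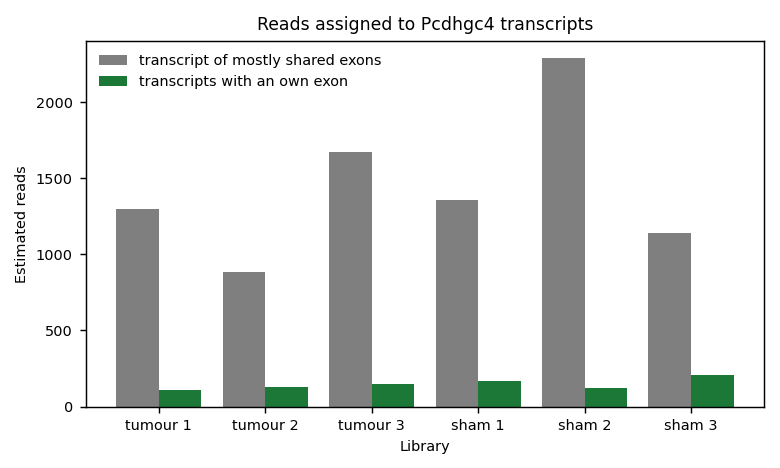
Estimated reads (vertical axis) in each library for Pcdhgc4: grey bars are the transcript made mostly of shared exons, green bars the transcripts with an own exon of at least 1000 bases. The grey bars range from 887 to 2289 and the green bars from 110 to 208.

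The 18 gamma A and B members, which neurons choose at random in combinations, held 27.6% to 30.3% of the gamma reads. Of these, Pcdhga1, Pcdhga3, Pcdhga7 and Pcdhgb2 fell, and Pcdhgb6 and Pcdhgb7 rose, while the other 15 of all 21 gamma members were not called. The called members were 28.6% of the gamma cluster (9.52% higher and 19% lower), beside 20.9% of all genes (10.5% and 10.4%). Pcdhga1 had 6.42, 6.74 and 6.08 CPM in tumour and 13.1, 12.9 and 11.6 CPM in sham libraries. Its groups lay far apart relative to their spread, sham 3 included, and it fell by 0.96 on the log2 scale (SE 0.11, adjusted p = 0.00341), or 1.95-fold. Pcdhga7, the most abundant of the A and B members, had 44.6, 45.6 and 42.6 CPM against 56.2, 58.8 and 67.4 CPM (-0.46, SE 0.08, adjusted p = 0.0136). The tumour libraries were again close together and all lower, and the call was lost without any 1 of them (adjusted p = 0.0617 to 0.0741).

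Pcdhgb7 had 34.2, 35.6 and 32.5 CPM in tumour and 28.6, 26.3 and 29.2 CPM in sham libraries (0.28, SE 0.07, adjusted p = 0.0408). Pcdhgb6 had 29.6, 25.0 and 29.7 CPM against 22.2, 20.6 and 22.7 CPM (0.36, SE 0.10, adjusted p = 0.0424). These are rises of 1.22- and 1.29-fold in groups that did not overlap. Pcdhga3 and Pcdhgb2 fell by 0.46 and 0.27 on the log2 scale, with adjusted p of 0.0473 and 0.0467. These last 4 calls were all lost without sham 1, without sham 2 and without any 1 of the tumour libraries. Of the other A and B members with a mean of at least 10 CPM, Pcdhga2 (-0.34, adjusted p = 0.0686), Pcdhga4 (-0.34, 0.0977), Pcdhgb4 (-0.39, 0.0826) and Pcdhga10 (-0.32, 0.12) had groups that did not overlap and were not called by edgeR. DESeq2 called Pcdhga2 (adjusted p = 0.0492), and edgeR without sham 3 called all 4 (adjusted p = 9e-05 to 0.0282). Pcdhgb1 (-0.24), Pcdhga6 (-0.17), Pcdhgb5 (-0.12) and Pcdhga11 (0.19) had overlapping groups and were not called either. Counting only transcripts with an own exon of at least 1000 bases left all 6 gamma calls in place (edgeR adjusted p = 0.00341 to 0.0466). This removed no transcript of these 6 genes and kept their reads from shared bases. It therefore could not test how the shared reads were divided.

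Along the cluster, the log2 fold changes of the A and B members tended upward from the first gene to the last. All 9 genes of the first part, Pcdhga1 to Pcdhga7, had negative values, with a median of -0.34 and a range of -0.96 to -0.01. In the other 9, Pcdhgb4 to Pcdhga12, 5 were negative and 4 positive, with a median of -0.03 and a range of -0.39 to 0.36. Over the 18 members, place in the cluster and log2 fold change had a Spearman rank correlation of 0.68, and of 0.68 with own-exon transcripts only. The latter dropped only a short Pcdhga4 transcript and kept the reads from shared bases, so it is no separate check. The correlation was 0.75 against sham 1 and 2 and 0.38 against sham 3, which use the same tumour libraries, and 0.59 for sham 3 against sham 1 and 2, which involves no tumour library. The order was looked at after the values had been seen, and the members share constant exons and libraries, so these correlations are descriptions only.

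**Figure D5:**
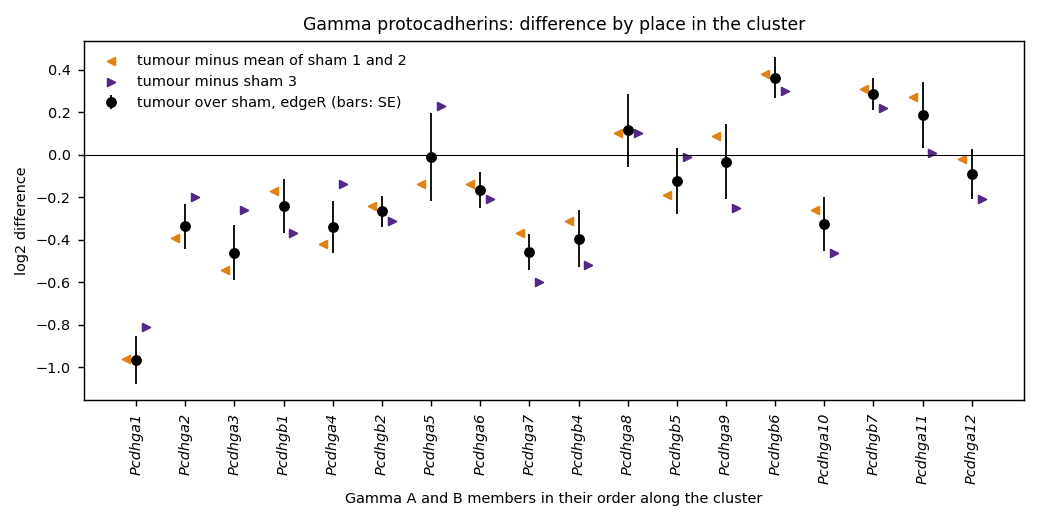
Log2 difference between tumour and sham libraries (vertical axis) for the 18 gamma A and B members in their order along the cluster. Black points are edgeR log2 fold changes with SE, from -0.96 for Pcdhga1 to 0.36 for Pcdhgb6; orange and purple marks show the difference from sham 1 and 2 and from sham 3.

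Sham 3 departed from sham 1 and 2 in many members, as it did over all tested genes (root mean square log2 difference 0.65 and 0.643). Among the 65 tested members, it was the highest of the 6 libraries in 21 and the lowest in 12. In 14 it fell in the gap from sham 1 and 2 to the tumour libraries. These places were not counted over all genes. Cdh13, Pcdh18, Pcdh20 and Pcdhgc5 had log2 fold changes of 0.33, 0.47, 0.57 and 0.03 with all libraries, and of 0.70, 0.95, 1.23 and 0.65 without sham 3. Each was called there, in a fit that called 57.7% of all genes and 48.6% of tested members. For each of these 4 genes sham 3 exceeded all tumour libraries. The Cdh17 value of -0.93 became -1.32 and was called without sham 3.

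Of 10 tested catenins and junction adaptors, the partners of cadherins at the core of the junction, 0 rose and 3 fell (30%, beside 10.4% of all genes that fell), with a median log2 fold change of -0.06. Ctnnb1 (beta-catenin, which binds the cadherin tail) had 805 ± 7.45 CPM in tumour and 845 ± 204 CPM in sham libraries (SD, n = 3; adjusted p = 0.815), and Ctnna1 (alpha-catenin, the link to actin) 348 ± 8.48 and 333 ± 48.1 CPM (adjusted p = 0.736). Vcl, which encodes the actin-binding adaptor vinculin, had 331, 318 and 319 CPM in tumour and 597, 611 and 478 CPM in sham libraries. The groups were well apart, and Vcl fell by 0.80 on the log2 scale (SE 0.12, adjusted p = 0.00658), a call kept without any 1 library. Arvcf, a catenin of the p120 family, fell by 0.98 (adjusted p = 0.0326) with sham 3 at 99.5 CPM near the tumour values of 76.0 to 84.3 CPM, and Ctnna2, the neural alpha-catenin, by 0.94 (adjusted p = 0.0405). Both of these calls were lost without any 1 tumour library.

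Of 13 tested large and atypical cadherins 1 rose and 1 fell (7.69% each, beside 10.5% and 10.4% of all genes). Dchs1 rose (0.61, adjusted p = 0.0422) and Fat4, the receptor that Dchs1 binds on the next cell, fell (-0.63, SE 0.10, adjusted p = 0.00957). Fat4 had 66.7, 68.4 and 69.4 CPM in tumour and 110.4, 117 and 89.8 CPM in sham libraries, while Dchs1 had 22.3, 20.8 and 20.8 CPM against 11.4, 12.9 and 17.5 CPM. In both genes sham 3 was the sham library nearest to the tumour values. Among nectins 0 of 3 were called by edgeR, beside 20.9% of all genes. At an unadjusted p below 0.05 there was 1, beside 5216 of all 14359 tested genes. Nectin1 had 108 ± 2.83 CPM in tumour and 56.6 ± 23.4 CPM in sham libraries (log2 fold change 0.93, edgeR adjusted p = 0.0509). Nectin3 had 96.3 ± 1.63 and 102 ± 7.03 CPM. Nectin1 was called by DESeq2 (adjusted p = 0.00453) and limma-voom (0.0342), by edgeR with upper-quartile scaling (0.0445) or a filter at 1 CPM (0.0482), and without sham 3 (log2 fold change 1.32, adjusted p = 2.81e-22). Of 8 genes for proteases that cut cadherins 0 rose and 1 fell (12.5%, beside 10.4% of all genes that fell). Mmp14 fell (-0.46, adjusted p = 0.0267), and Adam10, the main sheddase of N-cadherin, had -0.17 (adjusted p = 0.278).

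Of 7 repressors of E-cadherin 1 rose (14.3%, beside 10.5% of all genes), Zeb1, with 75.8, 72.1 and 71.0 CPM in tumour and 53.9, 53.7 and 60.3 CPM in sham libraries (0.38, SE 0.07, adjusted p = 0.0133). Snai1 had 0.06 and Zeb2 0.10, neither called. Of 12 genes for regulators of the clustered protocadherins 4 rose and 0 fell, beside 10.5% of all genes that rose. The 4 encode parts of cohesin or its loader: Rad21 (0.45, adjusted p = 0.012), Stag2 (0.50, adjusted p = 0.0213), Nipbl (0.35, adjusted p = 0.0369) and Smc3 (0.20, adjusted p = 0.0464). Other cohesin genes of the list were not called by edgeR: Smc1a (-0.06, adjusted p = 0.528), Stag1 (0.16, 0.169) and Wapl (0.22, 0.0572). Rad21 had 237, 242 and 232 CPM in tumour and 180.5, 182 and 159 CPM in sham libraries, with sham 3 the lowest. Ctcf, whose product loops cluster promoters to their enhancers with cohesin, had -0.18 (adjusted p = 0.273). The calls of Rad21, Stag2, Nipbl and Smc3 and those of Zeb1, Fat4, Dchs1 and Mmp14 were each lost without any 1 tumour library.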

How the data were processed

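RNA-seq libraries of 3 tumour-associated and 3 sham control astrocyte samples were analysed; groups and replicate numbers are from the sample titles. The submitters' processing notes name mm10, Salmon 0.8.2 and DESeq2 1.28.1, with no roles; per the file headers, the authors deposited for each transcript its length, effective length (both in bases), TPM and an estimated count of reads. The sources used here give no index, library kit or strandedness, so antisense and overlapping genes cannot be separated. Of 113116 transcripts 112841 were matched to GENCODE M21 by identifier without version (99.947% to 99.958% of reads); the sum of estimated counts over the transcripts of a gene was rounded. The annotation gives the symbol Pcdha11 to 2 genes, which were kept apart.

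The test was edgeR 4.0.16 (R 4.3.3) on all genes: TMM scaling, the filterByExpr rule with a count of 10 and a total of 15, a robust quasi-likelihood model of group alone, Benjamini-Hochberg adjustment over all 14359 genes and a threshold of 0.05. SEs were obtained from the log2 fold change and the square root of F. In a second fit the members of each cluster were replaced by their sum. CPM use TMM library sizes; the deposited TPM, summed per gene, served for levels between genes. Differences from sham 1 and 2 or from sham 3 alone use log2 of CPM with 0.5 added. Alternatives were DESeq2 1.42.0, limma-voom 3.58.1, other scaling and filters, length offsets, a replicate block, leaving out each library, and summing near libraries. The tests were tried on simulated data. The members, gene lists and tests were chosen with earlier results of these data known. Named are the called members, those of at least 10 CPM, Cdh1 to Cdh5 and Cdh11, and for each partner list up to 4 called genes or the 2 most abundant; other genes were named after their values were seen.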

Additional observations from a re-analysis of the deposited data

How the results depend on the processing

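The 5 members called higher became 3 with no filter on low counts, 2 with transcript length offsets and 0 to 12 without single libraries. The 6 called lower became 1 to 22 without single libraries. Over all genes, 536 to 4250 were higher and 355 to 4179 lower without single libraries, the upper ends being without sham 3, and 968 were lower with length offsets. With tumour 1 to 3 summed and sham 1 and 2 summed, edgeR called 0 members higher and 0 lower (2 and 0 at an unadjusted p below 0.05) and 0 genes in either direction (400 and 173 at an unadjusted p below 0.05); no other tool was run on these sums. Deviations of same-numbered tumour and sham libraries from their group means had correlations of 0.0156, -0.0155 and 0.00806. Because the tumour libraries nearly coincided and sham 3 stood apart, these values cannot tell whether the replicate numbers pair the samples. With the replicate block 2 members were higher and 3 lower, and 829 genes were higher and 607 lower. The alpha sum then had -0.54 (edgeR adjusted p = 0.0868).

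The alpha sum stayed negative but was not called with length offsets (-0.61), with near libraries summed (-0.56), without its most abundant member (-0.68, chosen after seeing the data) and as summed TPM (-0.55; exact two-sided permutation p = 0.1, the smallest that 3 against 3 allows); without single libraries it ranged from -0.61 to -0.51. The beta and gamma sums ranged from -0.43 to -0.14 and from -0.22 to -0.13 without single libraries and were called only without sham 3. Some named members that were not called with all 6 libraries changed sign. Without single libraries Cdh1 ranged from -0.65 to 0.06, Cdh18 from -0.31 to 0.23, Cdh19 from -0.10 to 0.32, Cdh2 from -0.07 to 0.04, Cdh5 from -0.04 to 0.08, Pcdhgb5 from -0.26 to 0.00 and Pcdhgc5 from -0.22 to 0.65. With near libraries summed, Cdh1 had 0.03 and Pcdhgc5 -0.21. The cause of these changes was not tested. Depth limits members below about 1 CPM, most of them in the alpha and beta clusters.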

Other observations

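Pcdhgb8, which the annotation lists as a polymorphic pseudogene and which the family rule therefore leaves out, had 102, 151 and 117 reads in the tumour and 87, 147 and 167 reads in the sham libraries, in the order of their numbers. The values of the groups overlapped. Pcdhgb8 lies in the gamma cluster, and how reads were divided between it and its neighbours was not tested.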
